A study of Mus musculus with 2 samples.

Results

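Mybpc1, Nr1h5, Notumos and Gm3289 were among the genes with the largest rises in embryonic ureters treated with BIO. None of the 4 was a member of the lists of WNT or aryl hydrocarbon receptor targets considered here. These lists were chosen with earlier results known, so absence from them says nothing about either pathway. The 4 genes were chosen by their measured rise with BIO, so their difference between BIO and control is described without a test. Their 5 probes, 2 for Mybpc1 and 1 for each other gene, are 5 of 39429 biological probes on the array, which carry 29875 gene names. All 5 were among the 28824 probes, of 21574 genes, that had enough signal to be tested, the dimmer Mybpc1 probe only through its BIO signals.

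The ureters came from wildtype NMRI mouse embryos at E12.5, whose sex was not determined. They were cultured as explants for 18 h in medium with 10 µM BIO, or with the solvent DMSO at 2:1000 as control. RNA of separate pools of ureters, 1 pool per channel, was compared on 2 arrays with 2 colors each. In replicate 1 the BIO RNA was read in red and the control RNA in green, and in replicate 2 the dyes were exchanged.

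BIO is an indirubin that inhibits the kinase GSK3, which otherwise marks the WNT effector β-catenin for degradation, and indirubins are also known as ligands of the aryl hydrocarbon receptor (AHR), a transcription factor that induces enzymes such as Cyp1a1. Mybpc1 encodes slow myosin-binding protein C, a thick filament protein of skeletal muscle. Nr1h5, also called Fxrb, encodes a nuclear receptor of the NR1H group, relatives of which sense oxysterols and bile acids and pair with retinoid X receptors (RXR); it has been described as a lanosterol sensor in rodents. Notum, the neighbor of Notumos, encodes a secreted deacylase that inactivates WNT ligands and is itself a WNT target. The functions of Notumos and Gm3289 are not given in the sources used here.

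The probes were designed against the mm9 genome build and are 60 bases long. Both Mybpc1 probes lie on the minus strand of chromosome 10. The first, at chr10:87981078-87981137, was listed for the transcript NM_001252372, and the second, at chr10:87985807-87985866, for NM_175418, with 4669 bases between them. The Nr1h5 probe (NM_198658) lies on the minus strand at chr3:102743584-102743643. The Notumos probe lies on the plus strand at chr11:120523011-120523070 and was listed for a cDNA clone, AK028718. The Gm3289 probe lies on the minus strand at chr6:21802994-21803053 and was listed for another clone, AK040992. No mm9 annotation was used here, so the position of the probes in exons was not analysed.

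The oligos of Notumos and Gm3289 are shown because these genes are known on the array only through them, and the second Mybpc1 oligo is shown because it stands for another transcript than the first. For Nr1h5 the 30 bases around the hexamer AATAAA, in capitals, are shown, since this hexamer is the usual polyadenylation signal. Of the 5 probes, 1 held it, compared with 12.6% of all probes on the array.
Mybpc1: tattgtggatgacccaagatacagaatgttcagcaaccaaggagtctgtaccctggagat
Nr1h5: gaatcgtgctatAATAAAcctatgtaggtt
Notumos: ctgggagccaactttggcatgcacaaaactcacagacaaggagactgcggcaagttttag
Gm3289: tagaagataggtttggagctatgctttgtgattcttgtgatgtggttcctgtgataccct
Each of the 5 probes shared a stretch of 20 bases with 0 other probes on the array, on either strand. Their GC content ranged from 35.0% to 50.0%, around a median of 41.7% for the array.

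Signals are given as processed signals, which are background-subtracted and dye-normalized intensities averaged over the 4 spots of a probe, and the fold is BIO over control on 1 array. The first Mybpc1 probe went from 73.9 in control to 911 in BIO on the array of replicate 1, and from 64.7 to 765 on that of replicate 2. BIO was thus 12.3-fold and 11.8-fold higher. In replicate 1, 1 spot of this probe was marked as an outlier and left out. The second Mybpc1 probe rose from 18.0 to 256 in replicate 1 and from 13.25 to 199.8 in replicate 2. These are 14.2-fold and 15.1-fold differences, but in the control of replicate 2 only a share of 0.5 of its spots was well above background. Both probes of Mybpc1 went from weak control signals to higher BIO signals in both dye orientations. The second probe passed the signal filter only through BIO. It is not independent support for the rise, since the gene was chosen by its rise.

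The Nr1h5 probe had a control signal of 125 and a BIO signal of 1034.5 in replicate 1, and 177 and 1357 in replicate 2. BIO exceeded control 8.29-fold and 7.68-fold. For Notumos the control signal was 233 and the BIO signal 2060.3 in replicate 1, against 164 and 1648 in replicate 2, which corresponds to 8.85-fold and 10.1-fold. For Gm3289 they were 126.5 and 1809 in replicate 1, and 141.5 and 1201 in replicate 2. The fold of Gm3289 was 14.3 in the first array and 8.49 in the second, the least even pair among the 5 probes, while its control signals were close to each other. In bulk RNA, a change in the number of cells that express a gene and a change of RNA per cell cannot be told apart.

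**Figure D1:**
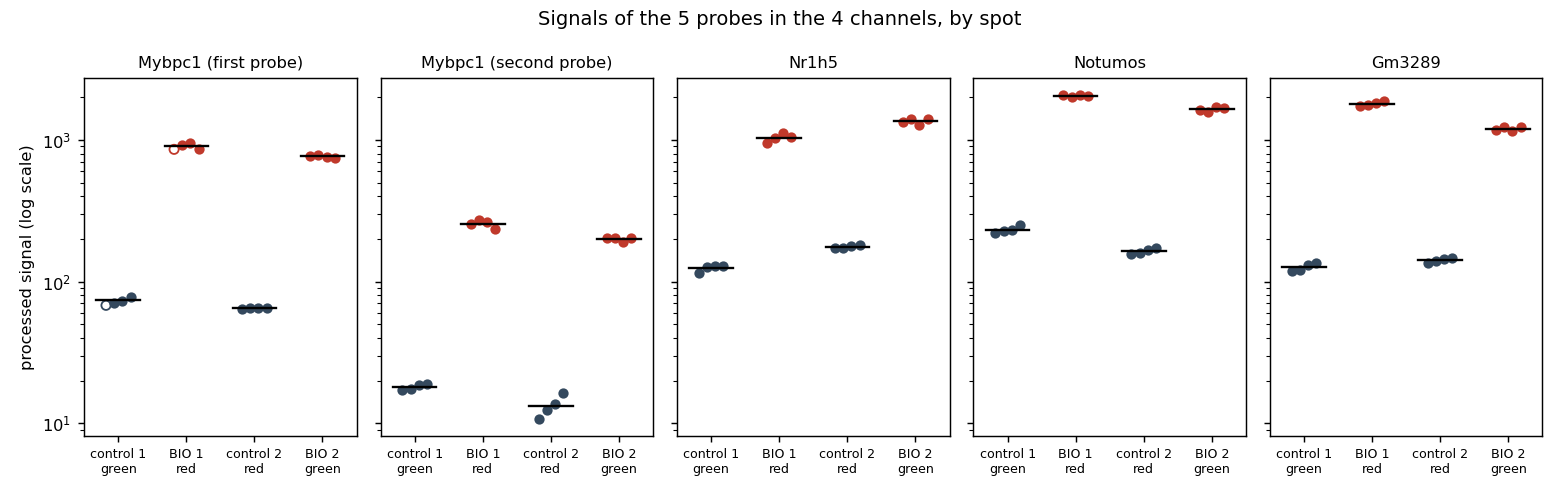
Processed signal of each spot (points, log axis) for the 5 probes in the 4 channels, with the dye of each channel below its name; horizontal bars are means over the spots kept and open points are spots marked as outliers. In every panel both BIO channels lie above both control channels, from 13.25 and 18.0 up to 199.8 and 256 for the second Mybpc1 probe.

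The log2 ratio of BIO over control was then taken from background-corrected and loess-normalized intensities, a scale on which weak signals are pulled toward 0. On this scale the first Mybpc1 probe had ratios of 3.19 and 3.04 on the arrays of replicate 1 and replicate 2, which gave a mean of 3.12 ± 0.10 (SD, n = 2). The second had 2.68 and 2.36, with a mean of 2.52 ± 0.23, which is 0.60 below the first. Its folds in processed signals rest on control signals near the floor of 15 and are not exact. Nr1h5 had the closest pair of values, 2.74 and 2.69, with a mean of 2.72 ± 0.03. Notumos had 2.94 and 3.095, with a mean of 3.02 ± 0.11, and was the only 1 of the 4 genes with the higher value in replicate 2. Gm3289 had 3.54 and 2.76, with a mean of 3.15 ± 0.56. Its difference between the arrays, 0.79, was reached by 1.65% of the tested probes, whose median difference was 0.16, whereas the other 4 probes had differences from 0.04 to 0.32. The SD of the log2 ratio between the spots of a probe was 0.02 to 0.15 for the 5 probes.

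Ordered by mean log2 ratio, with the probe of highest mean intensity standing for each gene, Gm3289, Mybpc1 and Notumos held ranks 2, 3 and 4 of 21574 genes and Nr1h5 held rank 7. Tnfrsf19, a receptor gene of the TNF receptor family and a known WNT target, was first with 3.21. The means of Tnfrsf19, Gm3289, Mybpc1 and Notumos lay within the array spread of Gm3289 and were not distinguishable by it. Between Notumos and Nr1h5 lay Sp5, a transcription factor gene induced by WNT signaling, at 2.80, and the secreted serine protease gene Htra1 at 2.73. Cdkn2b, an inhibitor of cyclin-dependent kinases, followed Nr1h5 at 2.68, and the values of Htra1, Nr1h5 and Cdkn2b differed by less than the SD of Cdkn2b, 0.33. Below these came Cyp1a1 at 2.55.

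By the distance between the pairs of log2 ratios of the 2 arrays, the gene most like Mybpc1 was Tnfrsf19 (0.13), followed by Notumos (0.25) and Gm3289 (0.46). For Nr1h5 these were Htra1 (0.11), Sp5 (0.26) and Cdkn2b (0.36). For Notumos they were Mybpc1 (0.25), Sp5 (0.32) and Tnfrsf19 (0.33), and for Gm3289 Mybpc1 (0.46), Tnfrsf19 (0.48) and Notumos (0.69). Likeness over 2 values describes only the size of the rise and its evenness.

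**Figure D2:**
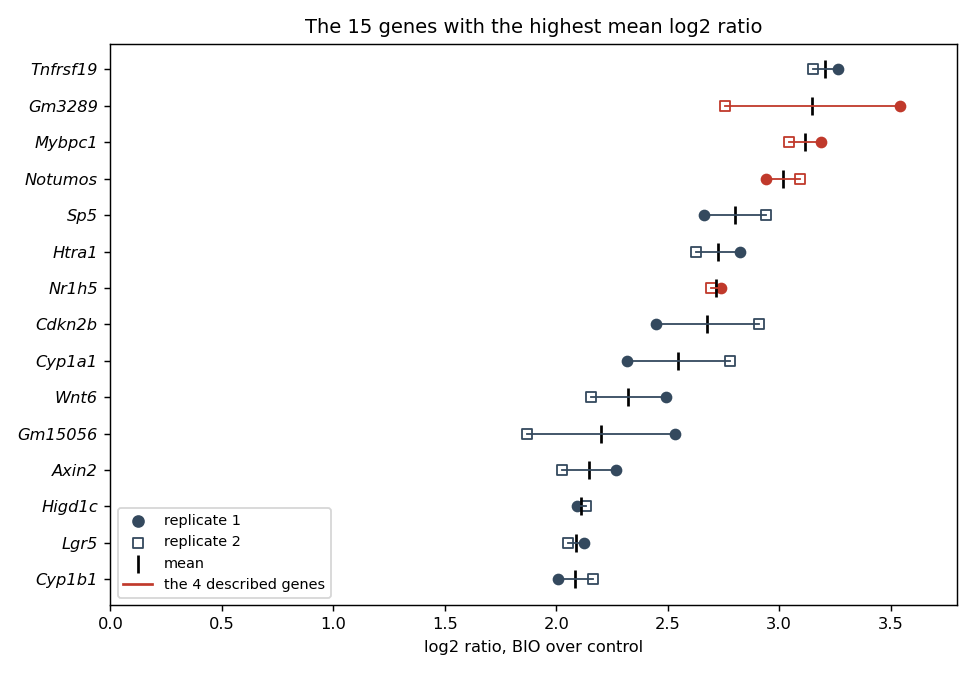
Log2 ratio of BIO over control in replicate 1 (circles) and replicate 2 (squares), with the mean (ticks), for the 15 genes with the highest mean. Gm3289 has the widest gap between the arrays, from 2.76 to 3.54, and Nr1h5 one of the narrowest, from 2.69 to 2.74.

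All 4 genes were also at least 2-fold higher with BIO on both arrays with the brighter channel at 100 or more, a rule on processed signals that 1.04% of the genes tested passed in this direction. In the limma test, 23.9% of the genes changed at an adjusted p below 0.05, 9.13% up and 14.8% down. Of these calls 38.2% were rises, compared with 59.4% when the deposited table was used in place of the scanner intensities. The members were picked from the top of this comparison, so nothing is read from their own counts, and these shares serve as background for the neighbors and lists. With the deposited table, 24 of the 32 calls among the named genes were lost.

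Notumos lies beside Notum, and the other 3 genes have more distant neighbors on the array. The nearest Notum probe, on the minus strand at chr11:120515209-120515268 (NM_175263), was 7742 bases from the Notumos probe on the opposite strand. In replicate 1 Notum had a control signal of 14337 and a BIO signal of 34310, and in replicate 2 these were 10970.4 and 21691. BIO exceeded control on both arrays, 2.39-fold and 1.98-fold, so that Notum just missed the 2-fold rule in replicate 2. Its log2 ratio was 1.23 and 0.93, with a mean of 1.08 ± 0.12 (SE) and an adjusted p of 0.000572 (limma). The log2 ratio of Notumos exceeded that of Notum by 1.71 in replicate 1 and by 2.16 in replicate 2, and Notum held rank 202 of the 28824 probes. Notumos was chosen for its rise and Notum was not, so this difference is only described. The nearest named gene on the other side, Aspscr1, 47178 bases away, had a log2 ratio of -0.05 (adjusted p = 0.803, limma).

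For Gm3289, the nearest named gene was Tspan12, a tetraspanin gene that acts in Norrin and Frizzled signaling, 81511 bases away on the same strand. In replicate 1 its control signal was 5819 and its BIO signal 9738, and in replicate 2 they were 6249 and 9914. It rose by 0.66 and 0.70 on the log2 scale, with a mean of 0.68 ± 0.11 (SE) and an adjusted p of 0.00319 (limma). On the other side Ing3, 120896 bases away, had ratios of opposite sign on the arrays, -0.40 and 0.30, and a mean of -0.05 (adjusted p = 0.855, limma).

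The nearest genes of Mybpc1 and Nr1h5 gave little change. Chpt1, encoding a cholinephosphotransferase, lay 29887 bases from the nearer Mybpc1 probe and had a log2 ratio of -0.13 (adjusted p = 0.432, limma). Spic, 152186 bases away on the other side, was too dim to be tested. For Nr1h5, Sike1 lay 62289 bases away with a log2 ratio of -0.35 (adjusted p = 0.0555, limma) at the nearest probe. The probe that represents Sike1 gave -0.40 with an adjusted p of 0.0343. Sycp1, 120951 bases away on the other side, had -0.26 and 0.40 on the arrays and a mean of 0.07 (adjusted p = 0.798).

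Within 500 kb of the 5 probes there were 80 named genes, of which 70 were tested. Of these, 14 rose and 7 fell, so that 30% changed and 20% rose, beside 23.9% and 9.13% of all genes. The median log2 ratio of the 70 was 0.03, and 1 of them, Parpbp, passed the 2-fold rule. Around Mybpc1, 5 of 13 rose and 1 fell. The highest was Parpbp, encoding a PARP1-binding protein, at 1.00 ± 0.11 (SE, adjusted p = 0.000485), 426 kb away. Gm6653 at 0.78 and Pmch, the gene of melanin-concentrating hormone, at 0.51 followed, while the anoctamin gene Ano4 fell by 0.74. Around Notumos, 7 of 42 rose and 3 fell. Apart from Notum these included Lrrc45 at 0.71, Myadml2 at 0.68 and Ccdc57 at 0.66. Around Nr1h5, 2 of 9 changed, among them Sike1 at -0.40. Around Gm3289, 1 of 6 rose and 2 fell, with Kcnd2, a potassium channel gene, at -0.65 and Cped1 at -0.37 beside the rise of Tspan12. The number of changed neighbors fell from 21 to 9 with median centering and to 8 with processed signals, and the calls of Sike1, Cped1 and Ccdc57 were lost under both. The call of Kcnd2 was lost with processed signals. That of Pmch was lost with median centering (adjusted p = 0.0770, limma), and its log2 ratio was 0.88 with offset 0. The highest log2 ratio among the neighbors was that of Notum. All neighbors lay below the gene they were near, but these genes were chosen for their rise, so nothing is read from this.

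**Figure D3:**
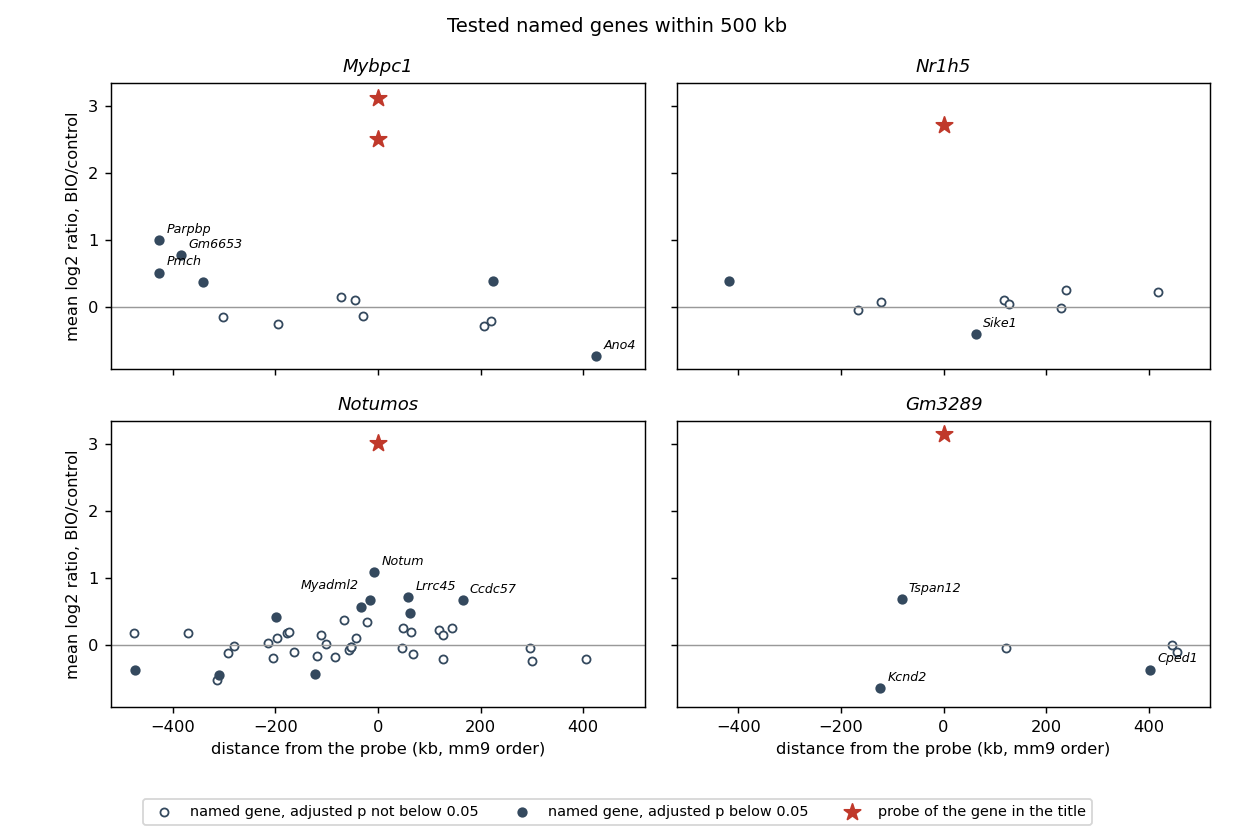
Mean log2 ratio of tested named genes (circles, filled where the adjusted p was below 0.05) against the distance of their probe from that of Mybpc1, Nr1h5, Notumos or Gm3289 (stars), with 1 panel for each. All circles lie between -0.74 and 1.08. The stars, chosen for their rise, lie at 2.52 to 3.15.

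The relatives of Mybpc1 were close to background. None of the 4 other genes of the myosin-binding protein C family, Mybpc2, Mybpc3, Mybph and Mybphl, had enough signal to be tested, and their signals ranged from 2.56 to 15.4 over all channels. Mybph had the highest of these, in BIO of replicate 2, where all its spots were well above background, whereas only a share of 0.25 was in BIO of replicate 1. Of 22 other genes of striated muscle, 17 were tested, of which 2 rose and 6 fell, with a median of -0.22 beside -0.01 for all genes. This median was -0.62 in replicate 1 and -0.01 in replicate 2, so the low median came from 1 array. This does not hold for each gene, since Acta1 and Des, described next, fell on both arrays. The skeletal actin gene Acta1 went from 206 in control to 70.9 in BIO (replicate 1) and from 225 to 101 (replicate 2), and fell by 1.19 ± 0.12 (SE, adjusted p = 0.000358). Des, encoding the intermediate filament protein desmin, fell by 1.17. The titin gene Ttn had ratios of -1.26 and -0.28 on the arrays of replicate 1 and replicate 2, mean -0.77 (adjusted p = 0.0279, limma), and its adjusted p was between 0.0574 and 0.487 with offset 0, with processed signals, with the deposited table, without the signal filter and with the channels as separate samples. The genes that rose were Tnnc1, encoding slow troponin C, at 0.64, and Actn2, encoding a Z-disc actinin. Actn2 had control signals of 7.11 and 7.38, the latter with 0 of its spots well above background, so its value of 0.65 is not exact. It was 1.23 with offset 0, and the call was lost with processed signals (adjusted p = 0.0699) and with the deposited table (adjusted p = 0.281). Of 6 markers of skeletal muscle, Myf5 and Ckm were not well above background in any channel, and Myod1 had no ratio in replicate 1 because its spots were marked as outliers. In replicate 1 the summed signal of the 6 was 259.8 in control and 105 in BIO, and in replicate 2, where Myod1 was counted, it was 348 and 231. Acta1 was the largest single part of this sum in every channel, with 101 of 231 in BIO of replicate 2. Other muscle genes were higher with BIO in replicate 2 and lower in replicate 1, among them Myog, which went from 12.3 to 44.1 in replicate 2, Myh3, from 37.2 to 129, and Myl1, from 186 to 238. Only a share of 0.25 of the Myog spots was well above background in the control of replicate 2.

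Of the 6 NR1H and RXR genes, which encode the receptors related to Nr1h5 and their partners, 5 were tested and 0 rose or fell at an adjusted p below 0.05 (limma). At an unadjusted p below 0.05 there were 3, all lower with BIO, and 2 passed with the deposited table (Rxra and Rxrb) and 1 with the channels as separate samples (Rxrb). The oxysterol receptor genes Nr1h3 and Nr1h2 had log2 ratios of -0.28 (adjusted p = 0.107) and -0.19 (adjusted p = 0.251). Rxrb had -0.33 (adjusted p = 0.0629), Rxra -0.26 (adjusted p = 0.119) and Rxrg -0.02 (adjusted p = 0.948). Rxrg differed in sign between the arrays, with 0.38 and -0.42. The bile acid receptor gene Nr1h4 was too dim to be tested, with signals from 5.97 to 12.3.

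Of 13 genes known as targets of NR1H receptors, 9 were tested, 0 rose and 3 fell (limma). At an unadjusted p below 0.05, 0 were higher and 4 lower. The cholesterol exporter genes Abcg1 and Abca1 fell by 1.42 ± 0.17 (SE, adjusted p = 0.00071) and 0.51 ± 0.11 (adjusted p = 0.0152), and the bile acid transporter gene Slc51a fell by 0.41 ± 0.11 (adjusted p = 0.0285). Slc51a was dim, with control signals of 24.7 and 31.5 and BIO signals of 13.1 and 18.2. In BIO of replicate 1 only a share of 0.25 of its spots was well above background. Slc51a thus passed the signal filter only through control, and its value is not exact. The Abcg1 signal went from 516 to 144 with BIO in replicate 1 and from 586 to 276 in replicate 2. The median of the 9 genes was -0.15, with -0.28 in replicate 1 and -0.08 in replicate 2. The call of Abcg1 was lost with processed signals (adjusted p = 0.0548), that of Abca1 with median centering and with processed signals (adjusted p = 0.204 and 0.0719) and that of Slc51a with median centering (adjusted p = 0.296), and all 3 were lost with the deposited table. Of 8 genes of lanosterol synthesis and later sterol steps, all were tested, with 1 risen and 5 fallen and a median of -0.50. Cyp51, also in this list, had a log2 ratio of -0.003 (adjusted p = 0.987, limma). Msmo1, a sterol methyl oxidase gene acting after lanosterol, fell by 0.88, and Lss, the gene of lanosterol synthase, fell by 0.51, as did Nsdhl, which acts later in sterol synthesis. The calls of Lss and Nsdhl were lost with processed signals, and that of Nsdhl also with median centering. With the deposited table the calls of Msmo1, Lss and Nsdhl were lost (adjusted p = 0.102, 0.190 and 0.126, limma). The gene that rose was Hsd17b7 at 0.42.

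As the frame for these values, 12 of 14 WNT feedback and target genes rose and 1 fell, with a median of 1.08. Axin2, a scaffold of the complex that degrades β-catenin, rose by 2.15 ± 0.12 (SE, adjusted p = 3.41e-05) and Lgr5, an R-spondin receptor gene, by 2.09. Of 6 AHR targets, 5 were tested and 4 rose, with a median of 2.08. Cyp1a1 rose by 2.55, Cyp1b1 by 2.09, Ahrr, the gene of the AHR repressor, by 2.08 and Tiparp by 1.58.

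**Figure D4:**
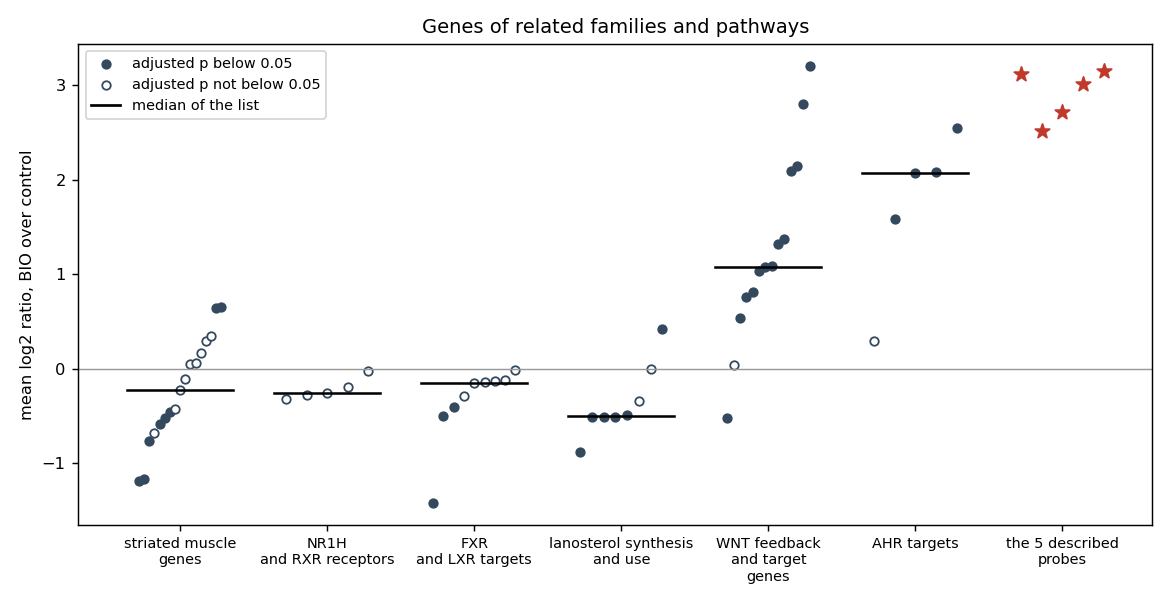
Mean log2 ratio of the tested genes of 6 lists (circles, filled where the adjusted p was below 0.05), with the median of each list (bars), beside the 5 probes of Mybpc1, Nr1h5, Notumos and Gm3289 (stars). The medians are 1.08 for WNT and 2.08 for AHR targets and lie below 0 for the other 4 lists. The stars, chosen for their rise, lie from 2.52 to 3.15.

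RefSeq promoter sequences, of 250 bases before to 50 after the gene start in the build GRCm38.p6, were listed for Mybpc1 and Nr1h5. They were searched on both strands for CTTTGAT, the form of the TCF/LEF motif bound in WNT signaling, and for GCGTG, the core of the AHR motif, which do not overlap each other. Neither promoter held CTTTGAT, which 3.73% of the 32851 promoters held. The Mybpc1 promoter held GCGTG 1 time and the Nr1h5 promoter 0 times, and 32.4% of the promoters held it. The bases before the gene start of both genes, both on the minus strand, are shown 5′ to 3′, with the GCGTG match, which is read on the other strand, in capitals. They are chr10:88605153-88605402 for Mybpc1 and chr3:102964134-102964383 for Nr1h5.
Mybpc1: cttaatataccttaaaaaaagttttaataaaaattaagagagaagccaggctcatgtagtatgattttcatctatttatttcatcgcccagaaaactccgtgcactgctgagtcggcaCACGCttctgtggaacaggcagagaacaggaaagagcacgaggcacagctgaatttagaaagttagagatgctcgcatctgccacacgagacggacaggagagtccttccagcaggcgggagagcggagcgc
Nr1h5: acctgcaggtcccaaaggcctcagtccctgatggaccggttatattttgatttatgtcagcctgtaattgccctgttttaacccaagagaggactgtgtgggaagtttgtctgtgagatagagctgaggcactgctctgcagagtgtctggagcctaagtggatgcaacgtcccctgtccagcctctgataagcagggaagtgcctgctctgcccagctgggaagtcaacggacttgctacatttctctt
A match describes these letters only.

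Markers of several cell types also changed with BIO. All 6 endothelial markers (Pecam1, Cdh5, Kdr, Tie1, Tek and Emcn) fell, with a median of -2.10, and their summed signal went from 21650.2 to 3563 in replicate 1 and from 25717 to 6903 in replicate 2. Of the ureteric markers, 4 of 6 epithelial and 5 of 6 mesenchymal genes fell and 0 rose, with medians of -0.90 and -0.58. The epithelial genes differed, with Krt19 at -1.24 and Epcam at 0.02, and all 12 were well above background in this tissue. Of 5 macrophage markers 4 were tested and 3 fell. Of 5 nerve and Schwann cell markers 4 were tested and 2 fell. Of 6 nephron markers, Wnt4 rose and Lhx1 fell. Liver markers were low, with summed signals from 43.7 to 104 over the channels. The part of these shifts in the values of Mybpc1, Nr1h5, Notumos and Gm3289 was not tested.

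The size of the log2 ratios, but not their direction, changed with the processing of the intensities. The genes were chosen for large rises on these same arrays, so the kept direction is not independent support. With processed signals in place of normexp and loess, the mean was 3.59 for the first and 3.78 for the second Mybpc1 probe, 2.996 for Nr1h5, 3.24 for Notumos and 3.46 for Gm3289. The second Mybpc1 probe thus moved from the lowest to the highest place among the 5. With median centering the values were 2.42 to 3.01, and the second Mybpc1 probe was again the lowest.

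**Figure D5:**
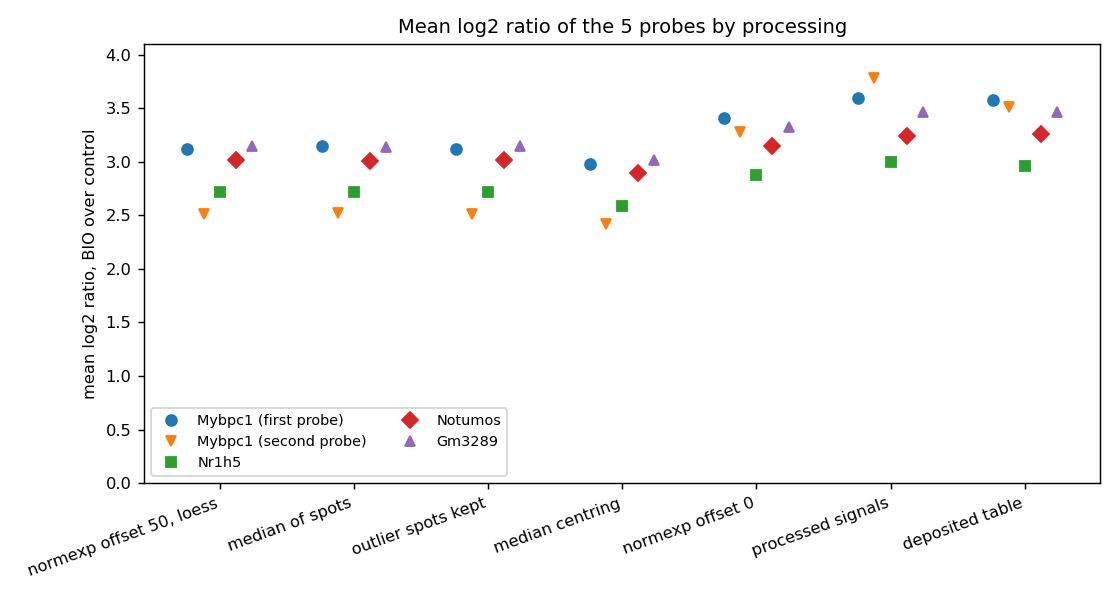
Mean log2 ratio of BIO over control for the 5 probes (symbols) under 7 ways of processing the intensities. The values range from 2.42 to 3.78, and the second Mybpc1 probe moves most, from 2.42 with median centering to 3.78 with processed signals.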

How the data were processed

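The authors hybridized Agilent 2-color arrays and read them with Feature Extraction 10.7.3.1. The deposited scanner tables hold mean and local background intensity per spot, not normalized, and processed intensity, which was background-subtracted and dye-normalized. A deposited table of 1 score per probe and array, whose making is not stated, follows a signed fold change and served as an alternative only. Mean intensities were corrected by normexp (offset 50) and normalized by loess with limma 3.58.1 in R 4.3.3. Outlier spots, 3.49% and 3.16% per array, were left out, spots were averaged, and the sign of the dye-swapped array was reversed. A probe was tested if over a share of 0.5 of its spots was well above background in control or in BIO of both arrays. The 2 ratios of a probe entered limma's lmFit and eBayes (two-sided), and p-values were adjusted by Benjamini-Hochberg over 28824 probes. The number of arrays limits the precision (median standard error 0.111 on the log2 scale). Each array counted as 1 replicate, since its RNAs came from pools of their own. The 2-fold rule used processed signals with a floor of 15, centered on the array's median. Scripts were tested on simulated data. Names came from RefSeq of GRCm38.p6, and Notumos and Gm3289 kept their names in the file.

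The 4 genes and all lists were chosen with earlier results of these data known. Genes named besides them were the nearest named gene on either side, the 3 genes nearest in log2 ratios, Notum, all tested family members, up to 4 called genes of each list and of the neighbors with the largest change, and genes adjacent in rank. Some genes that this rule names are not reported here. Tnnc1, Hsd17b7, Cyp51, Lgr5 and single markers were named after their values were seen.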

Additional observations from a re-analysis of the deposited data

How the results depend on the processing

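With 2 arrays, a test without either array cannot be made, so leaving out an array gives values only. Without replicate 1 or without replicate 2, the mean log2 ratio was 3.04 to 3.19 for the first and 2.36 to 2.68 for the second Mybpc1 probe, 2.69 to 2.74 for Nr1h5, 2.94 to 3.095 for Notumos and 2.76 to 3.54 for Gm3289. With normexp offset 0 it was 3.41 and 3.28 for the Mybpc1 probes, 2.87 for Nr1h5 and 3.15 for Notumos. With processed signals it was 3.59, 3.78, 2.996 and 3.24. With the values of the deposited table it was 3.58, 3.51, 2.96 and 3.26, and with median centering 2.98 for the first Mybpc1 probe, 2.58 for Nr1h5 and 2.89 for Notumos. Gm3289 was 3.01 with median centering, 3.32 with offset 0 and 3.46 with processed signals and with the deposited table. It moved by less than its SD of 0.56 under each of these settings, but this SD was the widest among the probes.

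Of all genes tested, 5154 changed, compared with 2766 with median centering, 1923 with processed signals, 3248 with the deposited table and 665 by the 2-fold rule. Of the neighbors, 21 changed, compared with 9, 8, 13 and 1 under these settings. Of the listed genes, 34 changed, compared with 19 with processed signals, 15 with the deposited table and 14 by the 2-fold rule. Under the alternatives that allow a test, 366 values of 41 named genes were obtained, of which 53 lost and 4 gained the call, and 0 called values changed sign. On the single arrays 4 of the 41 genes had opposite signs, and these were not called. The calls of Sike1 and Cped1 were lost with median centering, offset 0 and processed signals, and those of Notum and Axin2 were lost with the deposited table (log2 ratios 1.06 and 2.23). Treating the 4 channels as separate samples with no replicate block gave 5264, 19 and 32 calls. The cause of these changes was not tested. The control signal of the second Mybpc1 probe in replicate 2 lay below the floor of 15.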
